A study of Mus musculus with 24 samples.

Results

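The vitamin D receptor, its retinoid X receptor partners and their coregulators were measured in mouse duodenum as 8 genes, Vdr, Rxra, Rxrb, Ncoa1, Ncoa2, Ncoa3, Med1 and Ncor1, out of 25410 gene symbols in the tables. The genes were chosen by name, as the parts of the complex through which 1,25-dihydroxyvitamin D3 (1,25D), the hormonal form of vitamin D, acts on transcription. All 8 were found in each of 24 libraries with values above 0. The animals were male mice lacking Cyp27b1, the enzyme that makes 1,25D, so every group, vehicle controls included, was without its own hormone supply, and every diet was deficient in vitamin D. The rescue 1,25D group ate a diet with 2% calcium, 1.25% phosphorus and 20% lactose and was injected intraperitoneally with 1,25D at 2 ng per g of body weight. The rescue vehicle group ate the same diet and received vehicle. The normal 1,25D group ate a diet with 0.47% calcium and 0.3% phosphorus and received the same dose of hormone, and the normal vehicle group ate that diet and received vehicle. Mice were put on their diets at weaning, at 3 weeks, and injected when 8 weeks old, and tissue was taken 6 h after the injection. Each group had 6 libraries. The labels do not tie libraries to animals, and the number of mice they give per diet and per injection differs from the number of libraries, so a p-value here speaks only of the variation from library to library, which may in part be technical. No group with an intact Cyp27b1 gene is analysed here.

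Vdr is a nuclear receptor that, once it has bound 1,25D, pairs with a retinoid X receptor and binds DNA at vitamin D response elements near its target genes. The bound pair recruits p160 coactivators, encoded by Ncoa1, Ncoa2 and Ncoa3, which bring in histone acetyltransferases, and Mediator, whose subunit Med1 contacts the receptor and links it to RNA polymerase II. Without hormone many nuclear receptors hold corepressors instead, of which Ncor1 is a scaffold that carries the histone deacetylase Hdac3. In the duodenum this machinery drives the uptake of calcium from food.

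The proximal Vdr promoter is shown because Vdr had the highest level of the 8 genes and the widest spread. RefSeq (GRCm38.p6) places the 250 bases before one annotated Vdr start at chr15:97908297-97908546 on the minus strand. Capitals mark GC boxes, the letters GGGCGG on either strand, which is a binding motif of Sp1-type factors.
Vdr promoter: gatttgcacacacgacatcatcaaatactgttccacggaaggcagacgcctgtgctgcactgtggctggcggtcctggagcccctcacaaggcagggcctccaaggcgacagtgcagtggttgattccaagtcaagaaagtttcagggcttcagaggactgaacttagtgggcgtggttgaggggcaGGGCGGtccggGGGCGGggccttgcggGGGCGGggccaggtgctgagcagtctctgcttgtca
The GC boxes began 63, 52 and 36 bases before the start. Of 32851 mouse promoter windows of the same length, 32.7% held at least 1 GC box and 8.47% held as many as this one or more. Promoters of 6 of the 8 genes were matched, with 9 windows in all, and 7 of the 9 held a GC box. A direct repeat of receptor half-sites with 3 bases between them, sought on both strands, with each half-site being either AGTTCA (the classical form), AGGTCA (the consensus), GGTTCA (another known form) or GGGTCA (the last form searched), was in 0 of the 9 windows and in 13 of all 32851 (0.0396%). These letters were searched in the window only, and a match or its absence says nothing about binding.

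The libraries carried the markers of intestinal epithelium. All 12 enterocyte and all 10 general epithelial markers were above 0 in each library, and the general epithelial markers averaged between 38.6 RPKM (Cldn3) and 678 RPKM (Epcam). Smooth muscle, leukocyte, Paneth, goblet and crypt markers were present too. Pancreatic digestive enzymes were also read: the 14 exocrine pancreas markers made up 4.36% of all RPKM in normal vehicle replicate 6 and between 0.004% and 1.48% in the other 23 libraries. Normal vehicle replicate 6 gave the lowest value of 7 of the 8 genes, all but Vdr. Some correlations over 24 libraries and some counts of called genes are therefore also given without it below. Correlations with single markers, with the most similar genes and within the normal vehicle group are given only with it. Fold changes of the 8 genes are given with it, and none of the 8 was called without it.

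Vdr was the most abundant of the 8 genes, with a mean of 66.6 ± 20.0 RPKM over 24 libraries (SD; RPKM is a read count scaled to the length of the feature and the size of the library, so levels of different genes can be set side by side). Ncor1 followed at 32.7 ± 4.37 RPKM, Med1 at 25.8 ± 4.14 and Rxra at 21.7 ± 3.95. The p160 coactivators lay close together, Ncoa3 at 12.6 ± 1.81 RPKM, Ncoa1 at 12.0 ± 2.34 and Ncoa2 at 11.8 ± 1.64, and Rxrb was lowest at 5.90 ± 1.05. In 7 comparisons of neighbours in this order, by permutation tests with 100000 sign flips of the log2 ratio within a library, 5 passed an adjusted p of 0.05. Vdr exceeded Ncor1, Ncor1 exceeded Med1, Rxra exceeded Ncoa3 and Ncoa2 exceeded Rxrb in 24 of 24 libraries (adjusted permutation p = 2e-05, the smallest these permutations can give). Med1 exceeded Rxra in 17 of 24 libraries (adjusted permutation p = 0.00315). This place rests on summing the entries of Med1, which had 3 in the tables, 1 of them at 0 throughout; its highest single entry averaged 14.0 RPKM, below Rxra. Ncoa3 was not shown to differ from Ncoa1 (adjusted permutation p = 0.0744, higher in 17 of 24 libraries), nor Ncoa1 from Ncoa2 (adjusted permutation p = 0.637, higher in 12 of 24). Rxrg, the remaining retinoid X receptor gene, averaged 0.158 RPKM and was too low to be tested.

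Vdr encodes the receptor itself. Its lowest, median and highest values were 42.1, 55.1 and 90.3 RPKM in rescue 1,25D libraries, against 47.2, 78.2 and 104 RPKM in rescue vehicle libraries. They were 43.9, 65.3 and 96.4 RPKM in normal 1,25D libraries, against 34.7, 68.2 and 93.1 RPKM in normal vehicle libraries. All 4 groups overlapped over most of their range, and each held both high and low libraries. Group means were 61.9 ± 19.8 RPKM in rescue 1,25D, 74.1 ± 21.3 in rescue vehicle, 67.7 ± 19.3 in normal 1,25D and 62.9 ± 22.6 in normal vehicle (SD, n = 6 each). As these are whole pieces of tissue, fewer cells of a type and less RNA per cell cannot be told apart. The highest library held 2.99 times the Vdr of the lowest. The SD of Vdr within groups was 0.47 on the log2 scale, larger than that of 70.5% of all 20006 tested genes and of 86.3% of the 710 genes within 0.5 log2 units of its mean level. The other 7 genes had SDs between 0.21 and 0.28, against a median of 0.35 over all tested genes.

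Rxra encodes the more abundant of the retinoid X receptors read here. Its lowest, median and highest values were 16.6, 19.0 and 23.3 RPKM in rescue 1,25D libraries, against 19.0, 23.1 and 32.7 RPKM in rescue vehicle libraries. They were 20.5, 21.8 and 22.6 RPKM in normal 1,25D libraries, against 14.2, 21.3 and 26.9 RPKM in normal vehicle libraries. The normal 1,25D libraries lay within a factor of 1.10 of each other, all inside the range of their vehicle controls, and the rescue groups overlapped. Rxrb, the less abundant partner, had 4.67, 6.04 and 6.70 RPKM in rescue 1,25D libraries, against 5.39, 6.57 and 7.80 RPKM in rescue vehicle libraries. It had 4.60, 5.45 and 6.97 RPKM in normal 1,25D libraries, against 3.35, 6.20 and 6.91 RPKM in normal vehicle libraries. The groups overlapped here as well. Within a library the ratio of Vdr to Rxra had a median of 3.03 and ranged from 1.70 to 4.48, and the ratio of Rxra to Rxrb had a median of 3.801 and ranged from 2.43 to 5.14.

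Ncoa1, Ncoa2 and Ncoa3 are the 3 p160 coactivators. Ncoa1 had 9.11, 13.0 and 15.7 RPKM (lowest, median, highest) in rescue 1,25D libraries, against 8.99, 11.9 and 14.3 RPKM in rescue vehicle libraries. It had on the normal diet 8.58, 11.1 and 13.3 RPKM with 1,25D, against 7.93, 13.0 and 16.5 RPKM with vehicle. The highest Ncoa1 value of all, 16.5 RPKM, and the lowest, 7.93 RPKM, both came from normal vehicle libraries. Ncoa2 averaged 11.9 ± 1.14 RPKM in rescue 1,25D, 12.2 ± 1.18 in rescue vehicle, 11.3 ± 1.42 in normal 1,25D and 11.7 ± 2.66 in normal vehicle (SD, n = 6 each). Ncoa3 averaged 13.4 ± 1.95 RPKM in rescue 1,25D, 12.7 ± 1.41 in rescue vehicle, 12.6 ± 0.648 in normal 1,25D and 11.8 ± 2.69 in normal vehicle (SD, n = 6 each). For both genes the group ranges overlapped, and the spread was largest in normal vehicle.

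Med1, the Mediator subunit that contacts nuclear receptors, had 20.6, 27.6 and 33.9 RPKM (lowest, median, highest) in rescue 1,25D libraries, against 23.3, 26.5 and 35.0 RPKM in rescue vehicle libraries. In normal 1,25D libraries it had 21.7, 23.9 and 26.6 RPKM, against 17.1, 23.98 and 30.05 RPKM in normal vehicle libraries. Its medians were higher in both rescue groups than in both normal groups, but the ranges overlapped. Ncor1, the corepressor scaffold, had 29.6, 35.3 and 39.8 RPKM in rescue 1,25D libraries, against 29.2, 32.2 and 38.8 RPKM in rescue vehicle libraries. Among normal 1,25D libraries it had 26.3, 31.3 and 34.3 RPKM, against 19.9, 33.9 and 36.9 RPKM in normal vehicle libraries. Its 24 values lay within a factor of 2.00, the lowest of them in normal vehicle replicate 6.

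**Figure D1:**
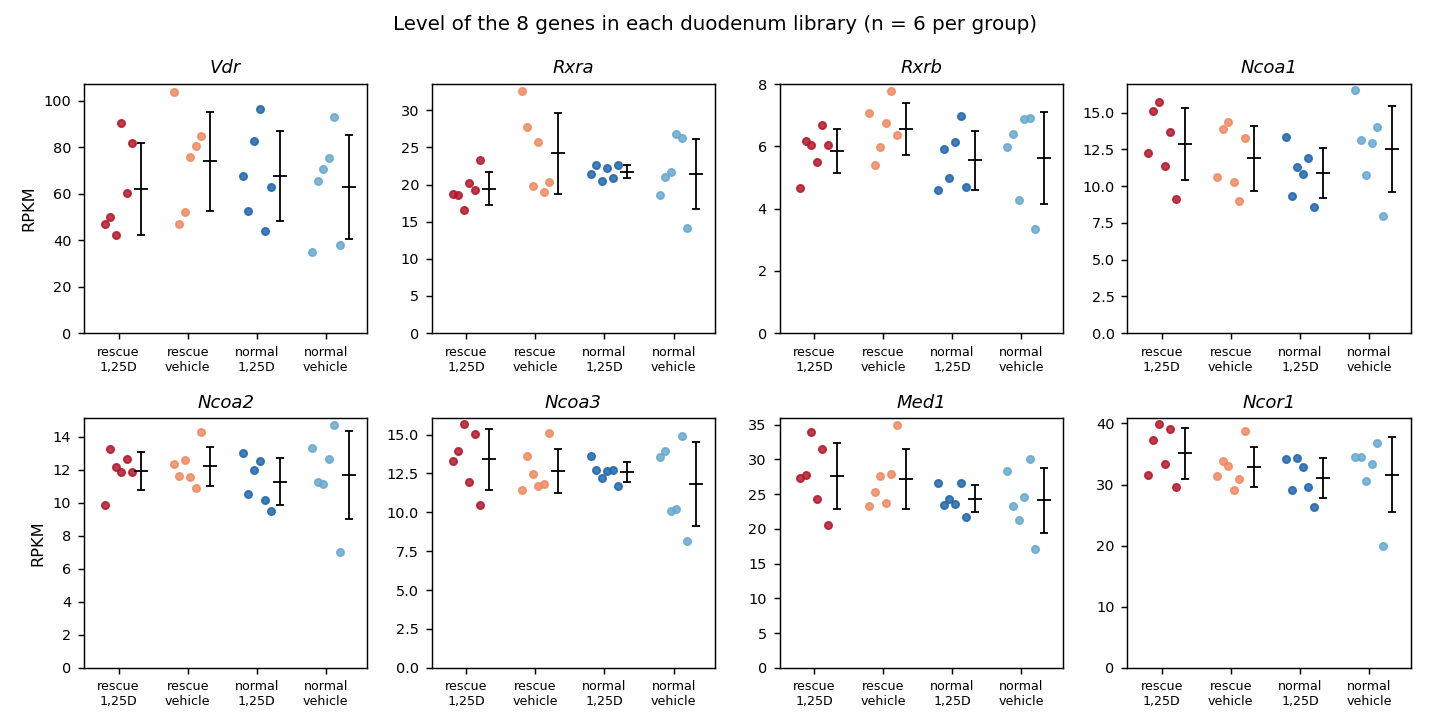
Level in RPKM (vertical axis, linear, from 0) of each of the 8 genes in each library, by group (horizontal axis; points are libraries, the dash and bar beside them the mean ± SD, n = 6). The 4 groups overlap for every gene, and Vdr, from 34.7 to 104 RPKM, has the widest spread.

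The design asks whether the hormone or the diet alters these genes. None of the 8 was called in any of 7 comparisons by limma at an adjusted p under 0.05 over 20006 genes, none had an unadjusted p under 0.05, and for none of them did the groups of a pairwise comparison separate. For 1,25D against vehicle, 0.145% of all tested genes were called on the rescue diet and 1.84% on the normal diet, which sets 0 of 8 beside a low background. For rescue against normal diet, 0.01% of genes were called after 1,25D and 0% after vehicle. The difference of the 1,25D effect between diets was called for 0.005% of genes, the mean 1,25D effect over both diets for 1.28%, and the mean diet effect over both injections for 0%. An unadjusted p under 0.05 was met by 4.83% of all genes for 1,25D on the rescue diet, 12% for 1,25D on the normal diet, 8.38% for diet after 1,25D and 7.18% for diet after vehicle. The share was 6.85% for the difference of the 1,25D effect between diets, 9.78% for the mean 1,25D effect and 9.5% for the mean diet effect. Groups that did not overlap were found for 0.365%, 2.22%, 0.815% and 0.225% of all genes in the same 4 pairwise comparisons.

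The direction of the estimates was mixed for the hormone. Of the 8 genes, 4 had a log2 fold change above 0 for 1,25D on the rescue diet, beside 60.9% of all tested genes, and 5 did on the normal diet, beside 58.8%. For the mean 1,25D effect 3 of 8, Ncoa3, Med1 and Ncor1, lay above 0, beside 65.8% of all genes. Vdr, both retinoid X receptors and the coregulators Ncoa1 and Ncoa2 lay below. For rescue against normal diet, 6 of 8 lay above 0 after 1,25D, beside 70.7% of all genes, and 7 of 8 after vehicle, beside 68.9%. The median over all genes depended on scaling: for diet after 1,25D it was 0.12 on the log2 scale as deposited and 0.01 after quantile normalization. For the difference of the 1,25D effect between diets, Ncoa1 and Ncor1 lay above 0, and 51.7% of all genes did.

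The intervals show what size of change the data allow. Across the 4 pairwise comparisons, 95% confidence intervals for the 7 genes other than Vdr ran at most from 0.671-fold to 1.47-fold, and for Vdr from 0.582-fold to 1.72-fold. For the mean 1,25D effect over both diets, the interval for Vdr was 0.745-fold to 1.24-fold, and those of the other genes lay between 0.799-fold and 1.22-fold. For Vdr, 1,25D gave a log2 fold change of -0.26 (SE 0.25, 95% interval -0.78 to 0.25) on the rescue diet and of 0.14 (SE 0.25, 95% interval -0.37 to 0.66) on the normal diet. Its difference between the diets was -0.41 (SE 0.35, 95% interval -1.14 to 0.33), an interval that reaches beyond a 2-fold difference. The lowest unadjusted p of the 8 genes was that of Rxra for 1,25D on the rescue diet, at a log2 fold change of -0.29 (SE 0.14, 95% interval -0.58 to 0.003, adjusted p = 0.878 by limma). Its value on the normal diet was 0.05 (SE 0.14, 95% interval -0.24 to 0.34), and the difference between the diets was not called (log2 -0.33, 95% interval -0.74 to 0.07).

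Among coactivators, the mean 1,25D effect on the log2 scale was -0.04 for Ncoa1 (95% interval -0.27 to 0.20), -0.03 for Ncoa2 (-0.22 to 0.17) and 0.10 for Ncoa3 (-0.09 to 0.28). For Med1 it was 0.03 (95% interval -0.17 to 0.22) and for Ncor1 0.04 (-0.14 to 0.23), the narrowest of the 8. The mean effect of the rescue against the normal diet had a log2 of 0.17 for Med1 (95% interval -0.02 to 0.36, adjusted p = 0.594 by limma) and of 0.16 for Rxrb (-0.07 to 0.38). All 8 genes had a mean diet effect above 0, as did 76.7% of all tested genes; the median of all genes was 0.10 on this scale and 0.00 after quantile normalization, and the median of the 8 genes was 0.09.

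**Figure D2:**
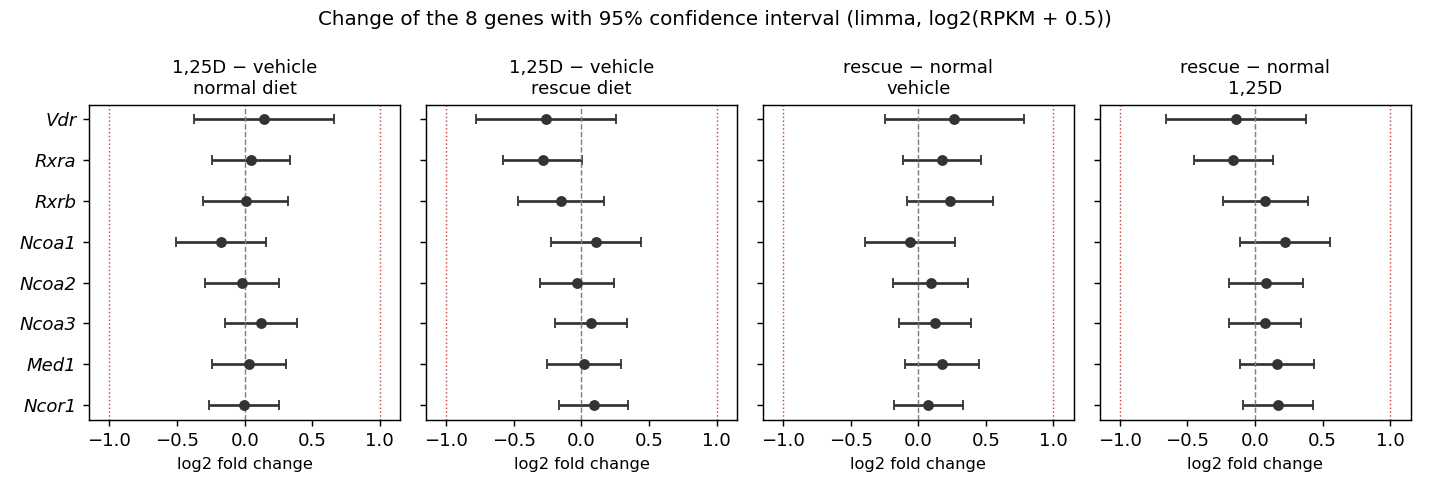
Log2 fold change (horizontal axis) of each of the 8 genes (rows) in the 4 pairwise comparisons, from limma on log2(RPKM + 0.5); points are estimates, bars 95% confidence intervals, and dotted lines mark a 2-fold change. Every interval includes 0 and lies inside the dotted lines; those of Vdr are the widest.

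The balance between the parts of the complex was compared within libraries, which does not depend on the scaling between them. For 4 ratios in 4 pairwise comparisons, 0 of 16 exact two-sided permutation tests passed after adjustment. The ratio of Vdr to Rxra had a median of 2.89 in rescue 1,25D, 3.06 in rescue vehicle, 2.97 in normal 1,25D and 2.96 in normal vehicle. Coactivator to corepressor, as Ncoa1 to Ncor1, had a median of 0.369 in rescue 1,25D, 0.347 in rescue vehicle, 0.329 in normal 1,25D and 0.383 in normal vehicle. The normal 1,25D and normal vehicle groups gave the smallest exact permutation p of the family, 0.0498, which became 0.797 after adjustment over 16, and their ranges overlapped (0.321 to 0.402 after 1,25D, against 0.353 to 0.478 after vehicle). Med1 stayed below Ncor1 in 24 of 24 libraries, with a median ratio of 0.803.

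The level of Vdr was then set against the response to the hormone in the 12 libraries of mice given 1,25D. Cyp24a1, which degrades 1,25D and is its classical target, had 92.1 to 962 RPKM in rescue 1,25D libraries, against 0.016 to 0.712 RPKM in rescue vehicle libraries, and 509 to 1036 RPKM in normal 1,25D libraries, against 0.131 to 4.03 RPKM in normal vehicle libraries. After removal of the group means, Vdr had a Pearson correlation of 0.11 with Cyp24a1, 0.18 with S100g, 0.26 with Trpv6, 0.34 with Atp2b1, 0.35 with Slc37a2 and 0.33 with Slc30a10 (n = 12). The Spearman rho of these pairs ran from 0.10 for Cyp24a1 and Trpv6 to 0.51 for Atp2b1. None of the 6 relations passed a permutation test (smallest adjusted p 0.671 for Pearson and 0.413 for Spearman). Without the libraries with the most extreme Vdr, replicate 4 of each 1,25D group, r ran from -0.23 for Cyp24a1 to 0.25 for Atp2b1. Within the rescue 1,25D libraries r ran from 0.01 for S100g to 0.34 for Slc30a10, and within the normal 1,25D libraries from 0.29 for Trpv6 to 0.84 for S100g, with 0.73 for Atp2b1 and 0.37 for Cyp24a1. Each of these rests on 6 libraries, and the difference between diets was not tested.

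Within groups, libraries differed together in some of the 8 genes. After removal of the group means, the 10 pairs among the 5 coregulators Ncoa1, Ncoa2, Ncoa3, Med1 and Ncor1 had Pearson correlations from 0.66 to 0.89 (median 0.82, n = 24) and Spearman rho from 0.49 to 0.81. Of 28 pairs of the 8 genes tested by permutation, these 10 all passed by Pearson and 9 of them by Spearman, Ncoa2 with Ncoa3 being the exception (adjusted p = 0.0683). The share of all gene pairs with correlations this high was not computed, so these are not shown to be particular to the coregulators. The 10 pairs of Vdr or Rxra with a coregulator had correlations from -0.25 to 0.42 (median 0.05), and 0 of 10 passed by either measure. Vdr and Rxra correlated at r = 0.54 (adjusted permutation p = 0.0432) and rho = 0.52 (adjusted p = 0.0545), with r = 0.43 without the libraries of most extreme Vdr. Within the groups this relation was uneven: r for Vdr and Rxra was 0.83 in rescue 1,25D, 0.20 in rescue vehicle, -0.02 in normal 1,25D and 0.86 in normal vehicle, each over 6 libraries.

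The size of these correlations depended on how libraries were scaled to each other and on normal vehicle replicate 6, in settings chosen after the data were seen. The median over the coregulator pairs was 0.58 with median-of-ratios scaling (range 0.26 to 0.79), 0.54 with quantile normalization (0.02 to 0.78) and 0.74 without that library (0.43 to 0.82). The median over the pairs of Vdr or Rxra with a coregulator was -0.22 (range -0.46 to 0.48), -0.40 (-0.65 to 0.36) and -0.33 (-0.53 to 0.26) under the same settings. Pairs of the 8 genes were not tested by permutation under these settings. Vdr with Rxra gave r of 0.59, 0.42 and 0.46 under them.

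**Figure D3:**
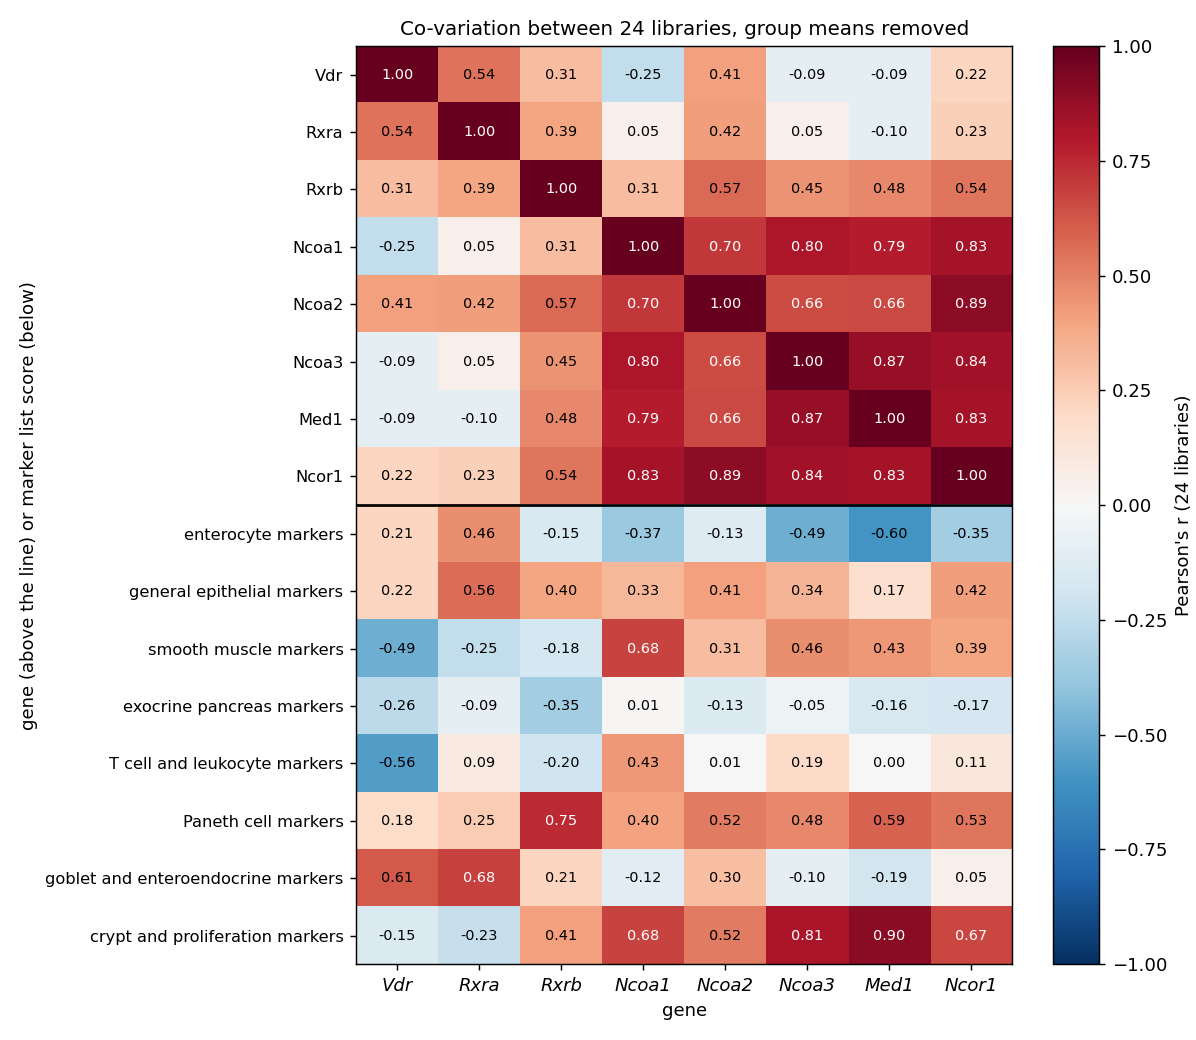
Pearson correlation between each of the 8 genes (columns) and the other genes or the mean log2 level of each marker list (rows), over 24 libraries after removal of group means; colour runs from -1 (blue) to 1 (red). The coregulators form a block from 0.66 to 0.89, and Med1 reaches 0.90 with the crypt and proliferation markers.

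The same deviations were compared with 8 lists of cell type markers, and 11 of 64 relations passed an adjusted permutation p of 0.05 by Pearson's r. How many of all tested genes follow these lists as closely was not computed, so no relation is shown to be particular to the 8 genes. By Spearman's rho the same 11 passed, and with them Rxra with enterocyte markers (rho = 0.65, adjusted permutation p = 0.0269; r = 0.46, adjusted p = 0.144). Med1 followed the 9 crypt and proliferation markers, which label intestinal stem cells and dividing cells, with r = 0.90 and rho = 0.88 (adjusted permutation p = 0.00064 for both, n = 24). Without the libraries of most extreme marker score r was 0.86. Within groups r was 0.87 in rescue 1,25D, 0.92 in rescue vehicle, 0.88 in normal 1,25D and 0.93 in normal vehicle, each over 6 libraries. All 9 single markers correlated positively with Med1, from 0.54 for Ccnb1 to 0.88 for the division genes Mki67 and Top2a. Ncoa3 followed the same list with r = 0.81 and rho = 0.77 (adjusted permutation p = 0.0016 for r). Both relations passed under all 3 other settings, with r between 0.81 and 0.90 for Med1 and between 0.61 and 0.79 for Ncoa3.

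Rxra followed the goblet and enteroendocrine markers, which label mucus and hormone producing cells, with r = 0.68 and rho = 0.73 (adjusted permutation p = 0.008 for r), and this passed under all 3 other settings. The single markers were uneven, with no clean split between goblet and enteroendocrine genes. Fcgbp (r = 0.79) and Muc2 (r = 0.76), both made by goblet cells, stood at the top. The hormone genes Sst (0.60) and Cck (0.58) lay beside the goblet markers Tff3 (0.58) and Clca1 (0.54). Chga and Chgb had 0.28 each. Gip (0.01), Sct (-0.08) and the goblet marker Zg16 (0.03) lay near 0. Ncoa1 followed the smooth muscle markers with r = 0.68 and rho = 0.62 (adjusted permutation p = 0.014 for r), also under all 3 other settings. The other 7 relations that passed by Pearson's r did not do so under every setting. They were those of Ncoa1 (r = 0.68) and Ncor1 (0.67) with crypt markers and of Med1 with enterocyte markers (-0.60). Vdr with goblet and enteroendocrine (0.61) and with T cell and leukocyte markers (-0.56) was also among them. So were Rxrb (0.75) and Med1 (0.59) with Paneth cell markers, which passed under 0 of the 3 other settings. There r was between 0.41 and 0.58 for Rxrb and between 0.15 and 0.40 for Med1. Gene and marker levels here come from the same libraries and share their scaling. Of the marker scores, only those of smooth muscle and of exocrine pancreas were fitted as covariates. None of the 8 genes was then called, and 7 and 8 of 56 results changed sign. The part of cell composition in the levels of the 8 genes was not otherwise tested.

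**Figure D4:**
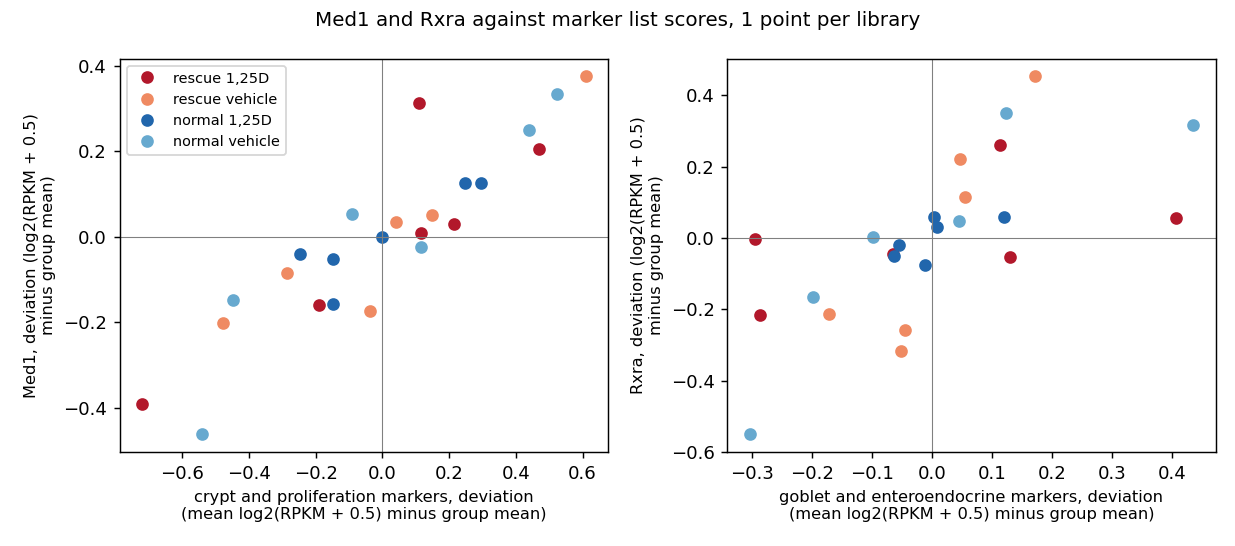
Deviation of Med1 from its group mean against that of the crypt and proliferation score (left), and of Rxra against the goblet and enteroendocrine score (right), both on the log2(RPKM + 0.5) scale; points are libraries coloured by group. Points of all 4 groups follow the rising course for Med1 (r = 0.90) more closely than for Rxra (r = 0.68).

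For each of the 8 genes the genes with the most similar deviations were sought over 24 libraries. The search took in tested genes that averaged at least 1 RPKM (13683 compared). Symbols that are Gm numbers, Rik names or dates were left out. For Vdr they were Pcmtd2 (r = 0.90), Gpt2 and Pcnx (0.87 each). For Rxra they were Epn1 (0.91), B3gnt3 (0.89) and Atp7b (0.88), and for Rxrb Cdkn2aipnl (0.88), LOC100504405 and Lancl2 (0.86 each). The p160 genes were most like Ptbp1, Ube2n and Usp48 for Ncoa1 (0.90, 0.90 and 0.89), Gsk3b, Lats1 and Lpp for Ncoa2 (0.93, 0.91 and 0.91), and Rgs12, Rcbtb1 and Fbxl14 for Ncoa3 (0.92 each). Med1 was most like Ddx17, Gemin5 and Anapc1 (0.94 each), and Ncor1 most like Csnk1g1 (0.94), Ankrd17 (0.93) and Cnot1 (0.92). These are the highest of many correlations and are given as a description.

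Other members of the same families were read from lists of 79 genes. None of 31 further Mediator subunits and none of 12 corepressor complex genes was called in any of the 7 comparisons; among them 1 Mediator and 0 corepressor genes had an unadjusted p under 0.05 for 1,25D on each diet. For the mean diet effect 10 of the 31 Mediator genes and 2 of the 12 corepressor genes had one, beside 9.5% of all genes, with medians of 0.13 and 0.16 on the log2 scale beside 0.10. That median of all genes was 0.00 after quantile normalization, a scaling under which these lists were not read. Their median log2 fold changes for 1,25D were 0.07 and 0.00 on the rescue diet and 0.09 and -0.03 on the normal diet, beside 0.06 and 0.05 for all genes. Of 20 further coactivators and chromatin enzymes, Ncoa4 was called for 1,25D on the normal diet, where 1.84% of all genes were, and none in the other 6 comparisons. Of 15 other nuclear receptors that pair with retinoid X receptors, 1 was called for 1,25D on the rescue diet (0.145% of all genes were), 3 on the normal diet (1.84%) and 2 for the mean of both diets (1.28%), all higher after 1,25D.

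Ppard, a fatty acid sensing receptor that also pairs with retinoid X receptors, had 19.6, 22.9 and 26.6 RPKM (lowest, median, highest) in rescue 1,25D libraries, against 9.40, 11.8 and 20.2 RPKM in rescue vehicle libraries. With the normal diet it had 16.2, 21.1 and 24.6 RPKM with 1,25D, against 8.29, 11.01 and 19.3 RPKM with vehicle. Single vehicle libraries reached into the 1,25D range on both diets. Ppard rose after 1,25D by a mean log2 of 0.78 over both diets (SE 0.12, adjusted p = 0.000342 by limma), by 0.82 on the rescue diet (adjusted p = 0.0484) and by 0.74 on the normal diet (adjusted p = 0.0220). The mean effect was called without each of the 24 libraries in turn. The call on the rescue diet was lost in 20 of 24 such fits (adjusted p from 0.0565 to 0.196), all but those without normal vehicle replicates 5 and 6, rescue vehicle replicate 2 and rescue 1,25D replicate 5. On the normal diet it was lost without normal 1,25D replicate 1, 3 or 4 (adjusted p from 0.0518 to 0.0596).

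Pparg, a related receptor, had 4.85, 12.5 and 15.7 RPKM in rescue 1,25D libraries, against 5.37, 6.56 and 9.48 RPKM in rescue vehicle libraries, and 8.54, 10.8 and 15.0 RPKM in normal 1,25D libraries, against 3.89, 5.63 and 9.05 RPKM in normal vehicle libraries. The groups overlapped on both diets. Pparg rose by a mean log2 of 0.73 over both diets (SE 0.16, adjusted p = 0.0148 by limma), but was not called after quantile normalization (0.69, adjusted p = 0.0661) or median-of-ratios scaling (0.67, adjusted p = 0.0756), nor from its highest entry alone (1.09, adjusted p = 0.139). On the normal diet it rose by 0.87 (adjusted p = 0.0475 by limma). That call was lost after quantile normalization (0.78, adjusted p = 0.168), with median-of-ratios scaling (0.79, adjusted p = 0.168), from the highest entry (1.40, adjusted p = 0.147), without the filter on low values and with the smooth muscle score as a covariate. It was also lost in 15 of 24 fits without 1 library (adjusted p from 0.0520 to 0.131), those without normal vehicle replicates 1, 2, 4 and 5, normal 1,25D replicates 2 to 6, rescue vehicle replicates 3 to 6 and rescue 1,25D replicates 1 and 3.

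Nr1h3, the oxysterol receptor LXR alpha, had 10.5, 11.7 and 15.0 RPKM in normal 1,25D libraries, against 5.17, 7.77 and 9.63 RPKM in normal vehicle libraries, with no overlap. It rose by a log2 of 0.65 on the normal diet (SE 0.13, adjusted p = 0.00514 by limma), and was not called on the rescue diet (-0.10, 95% interval -0.36 to 0.16); the difference between diets was not called (log2 -0.75, 95% interval -1.12 to -0.38, adjusted p = 0.187). Nr1h3 had 2 entries whose values traded places between libraries, so the result holds for their sum; with the higher entry alone the log2 was -1.11 (adjusted p = 0.677). Ncoa4, a coactivator that also carries ferritin to its breakdown, had 246, 329 and 400 RPKM in normal 1,25D libraries, against 36.5, 109 and 216 RPKM in normal vehicle libraries, again with no overlap. It rose by a log2 of 1.73 (SE 0.40, adjusted p = 0.0223 by limma) on the normal diet, and had 0.38 (95% interval -0.45 to 1.21) on the rescue diet, where it was not called. The call was lost with median-of-ratios scaling (1.65, adjusted p = 0.0639) and without normal vehicle replicate 1 or 2 or normal 1,25D replicate 3, 4 or 6 (adjusted p from 0.0522 to 0.0715). Ncoa4 also had 2 entries, and their sum was used. In rescue 1,25D 1 entry was at 0 in 5 of 6 libraries, against a median of 62.5 RPKM in rescue vehicle. The other entry had medians of 178 and 75.2 RPKM in these groups, in that order. From the higher entry alone, Ncoa4 was called on the normal diet (log2 2.06, adjusted p = 0.0180 by limma). Over the settings run, its log2 on the rescue diet ran from 0.14 to 0.89 and was not called in any. Gm6768, which RefSeq lists as the pseudogene Ncoa4-ps, had 474 to 724 RPKM in normal 1,25D libraries, against 64.7 to 369 RPKM in normal vehicle libraries, so reads of the 2 copies may be split between them and the level of Ncoa4 is uncertain.

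Levels of other cell types' markers on the normal diet are given beside these receptors. The 12 enterocyte markers summed to 7144 to 13148 RPKM in normal 1,25D libraries, against 3071 to 6427 RPKM in normal vehicle libraries, and 3 of the 12 were called, all higher after 1,25D. The 14 exocrine pancreas markers had a median sum of 468 RPKM in normal 1,25D libraries, against 3941 RPKM in normal vehicle libraries; 0 of 14 were called, and all 14 had an unadjusted p under 0.05 by limma. The 11 goblet and enteroendocrine markers had a median sum of 2122 RPKM in normal 1,25D libraries, against 1862 RPKM in normal vehicle libraries. Of these, 0 of 11 were called and 7 had an unadjusted p under 0.05. The 9 crypt and proliferation markers had a median sum of 469 RPKM in normal 1,25D libraries, against 689 RPKM in normal vehicle libraries. Here 0 of 9 were called and 2 had an unadjusted p under 0.05. Of 11 T cell and leukocyte markers 0 were called and 4 had one. Over all tested genes 1.84% were called and 12% had an unadjusted p under 0.05. With the pancreas score as a covariate, the log2 fold change for 1,25D on the normal diet was 0.77 for Ppard (0.74 without it), 0.74 for Pparg (0.87), 0.56 for Nr1h3 (0.65) and 1.502 for Ncoa4 (1.73). None of the 4 was then called by limma (adjusted p = 0.0827 for Ppard, 0.273 for Pparg, 0.0725 for Nr1h3 and 0.169 for Ncoa4). Ppard on the rescue diet had a log2 of 0.82 with and without the covariate, and an adjusted p of 0.0554 with it. For the mean of both diets Ppard was called with this covariate (log2 0.80, adjusted p = 0.00131), and Pparg was not (0.66, adjusted p = 0.0754). The part of enterocyte markers in these changes was not tested.

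**Figure D5:**
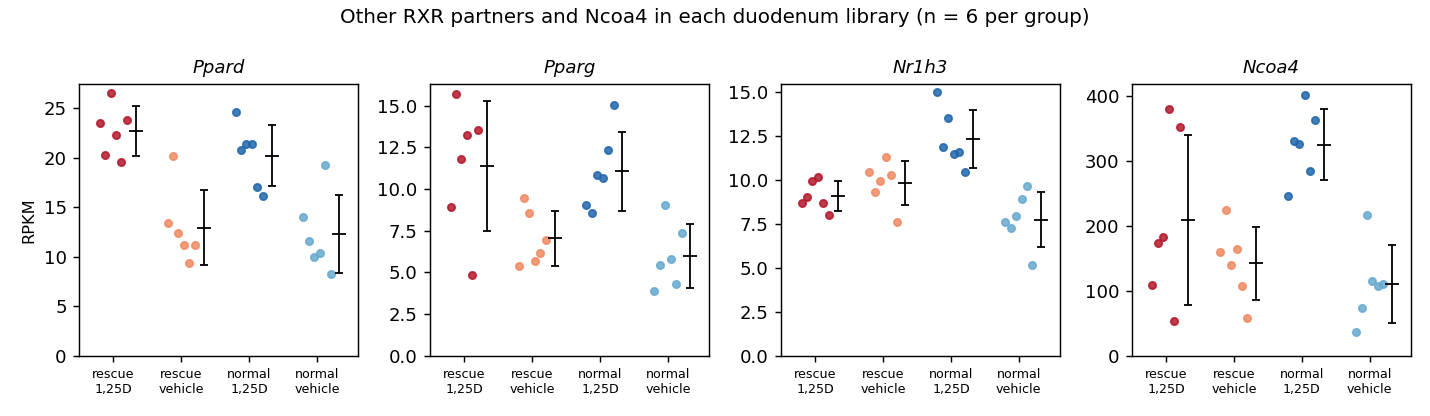
Level in RPKM (vertical axis, linear, from 0) of Ppard, Pparg, Nr1h3 and Ncoa4 in each library by group (horizontal axis; points are libraries, the dash and bar the mean ± SD, n = 6). Ppard is higher after 1,25D on both diets, while Nr1h3 and Ncoa4 separate 1,25D from vehicle on the normal diet and overlap on the rescue diet.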

How the data were processed

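RNA sequencing of duodenum gave 1 table per library. The authors deposited RPKM values, per the file headers; TopHat and the mouse build mm9 are named per the submitters' processing notes, and versions, quantifier and annotation: not given in the sources used here. Libraries were directional and depleted of ribosomal RNA, per the labels' protocols. Each table held 30795 entries for 25410 symbols; entries sharing a symbol were summed. Summed RPKM ran from 541395 to 697913 per library, and the absolute depth is unknown, so no counting interval is given.

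Groups follow the labels. limma 3.58.1 in R 4.3.3 was fitted to log2(RPKM + 0.5), with a trend in the empirical Bayes step and 1 mean per group, on 20006 genes with 0.5 RPKM or more in at least 6 of 24 libraries; fold changes on this scale understate those of low genes. A call is a Benjamini-Hochberg adjusted p under 0.05 over these genes. The scripts were tested on simulated data. Ratios were compared by exact permutation tests, and correlations of deviations from group means by permutation tests of 100000 resamples within groups; all tests were two-sided. Alternatives covered the pseudocount, filter, scaling, library weights, replicate block, samples fitted, entries per symbol, 2 tissue scores as covariates and left-out libraries. Python 3.11.15, numpy 2.4.6, pandas 2.3.3, scipy 1.17.1 and matplotlib 3.10.9 were used. Named outside the 8 genes were called genes of the lists, the 6 hormone response genes and the 3 genes most like each of the 8; Rxrg and Gm6768 were added after their values were seen. The 8 genes and the lists were chosen with earlier results of these data known. Promoters came from RefSeq (GRCm38.p6), a build other than that of the tables, and no other coordinates were used.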

Additional observations from a re-analysis of the deposited data

Results flagged for a closer look

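The ratio of Ncoa1 to Ncor1 was 0.478 in normal vehicle replicate 1, while the next highest library of that group had 0.397. The gap was 0.645 of the group's range, above the limit of 0.625 used for 6 values. It was the only one of 48 groups of values checked (8 genes and 4 ratios in 4 groups), where chance alone would mark about 5% of groups. Normal vehicle replicate 1 also had the highest Ncoa1 and the lowest Vdr of the 24 libraries.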

How the results depend on the processing

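None of the 8 genes was called in any comparison under any alternative run: in 2048 refitted gene results the smallest adjusted p was 0.101 (library weights). The sign of an uncalled change differed in 136 of these, 17 of 56 with quantile normalization, 19 of 56 with median-of-ratios scaling and 61 of 1344 when 1 library was left out. The largest move was that of Vdr for rescue against normal diet under vehicle, 0.27 on the log2 scale as reported and 0.06 with library weights. None of the 16 ratio tests passed under any alternative (smallest adjusted p 0.346). With the replicate block the smallest adjusted p of the 8 genes was 0.603, and Ppard on the rescue diet was no longer called (adjusted p = 0.0783). Same-numbered libraries did not vary together (36 pairs, correlations from -0.44 to 0.48, 13 over 0.1; 4 of 24 libraries correlated best with their own number), so the numbers were not taken as pairs. The direction of Nr1h3 for 1,25D on the normal diet turned to -1.11 with the higher of its entries, and the correlation of Rxrb with Ncor1 was 0.54 as reported and -0.23 with quantile normalization; the cause was not tested.

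Counts over all genes, used here only as background, moved more. For 1,25D on the rescue diet 29 genes were called (11 to 90 under other settings, 12 to 48 without 1 library), on the normal diet 368 (128 to 475, and 200 to 453), and for the mean of both diets 256 (173 to 470, and 208 to 360). For diet after 1,25D 2 genes were called (0 to 1287, the most with library weights, and 0 to 14), for the difference between diets 1 (0 to 32, and 0 to 17), for diet after vehicle 0 (0, and 0 to 4), and for the mean diet effect 0 throughout. The split on the normal diet was 357 higher and 11 lower as reported, 233 and 92 after quantile normalization, 208 and 68 with median-of-ratios scaling, and 279 and 117 without normal vehicle replicate 6. Over both diets it was 238 and 18 as reported, and 241 and 136, 203 and 111, and 237 and 123 under the same settings. Depth is unknown, so whether low reads limit the precision for Rxrb, the lowest of the 8, could not be judged.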
